A study of Mus musculus with 16 samples.

Results

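10 genes of distal mouse chromosome 14 were followed across embryonic stem cells that lack the zinc fingers of Prdm4, cells that carry a Prdm4-EGFP fusion, and wild-type cells. They were Tgds, Gpr180, Abcc4, Dzip1, Mbnl2, Ipo5, Stk24, Dock9, Tm9sf2 and Pcca, 10 of the 19057 genes that the array annotation names, and they carried 22 probes. The genes were selected on measured values of the Prdm4 null arrays against the wild-type arrays, so that contrast is given for them as a description with no test. The label "raised in null" fitted 7 of the 10. For the other 3, Tgds, Gpr180 and Dzip1, every probe was below background on all 16 arrays, and no difference can be read.

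Total RNA was hybridised to Illumina Mouse WG-6 v2 bead arrays, 1 array per sample. The 4 Prdm4 null arrays came from CCE cells, a line of strain 129/Sv, in which both alleles carry a deletion of the exons for the zinc finger domain (Prdm4∆ZF/∆ZF). A truncated transcript remains. The paper describes Cre excision of the selection cassette before the retargeting that made both alleles mutant, and none after it. The 6 Prdm4-EGFP arrays came from gelatin-adapted wild-type CCE cells stably transfected with full-length Prdm4 joined to a green fluorescent protein, driven by the chicken beta-actin promoter of pCAGGS with a linked puromycin resistance. The 6 wild-type arrays came from Prdm4+/+ CCE cells. All cells were kept in medium with LIF, the cytokine that holds embryonic stem cells undifferentiated. The deposited design counts the arrays as clones. The paper describes retargeting of several excised clones, and independent Prdm4-EGFP clones for its binding experiments. Which of these each array came from is not given in the sources used here. The errors given here therefore describe arrays, and p-values may reflect a spread smaller than separate derivations would show.

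The 10 genes lie in the order Tgds, Gpr180, Abcc4, Dzip1, Mbnl2, Ipo5, Stk24, Dock9, Tm9sf2 and Pcca towards the distal end of the chromosome, and they serve unrelated functions. Abcc4 is an efflux transporter of the multidrug resistance protein family that exports organic anions and cyclic nucleotides, Tm9sf2 is a protein of endosomal and Golgi membranes, and Gpr180 is a multi-pass membrane protein. Ipo5 is an importin that carries ribosomal proteins and other cargo into the nucleus, and Mbnl2 is a muscleblind protein that sets the splicing of many transcripts. Stk24 is a germinal centre kinase, and Dock9 is a guanine nucleotide exchange factor that activates Cdc42. Pcca is the biotin-carrying subunit of the mitochondrial propionyl-CoA carboxylase, Tgds is a sugar nucleotide dehydratase, and Dzip1 acts at the base of the cilium, where hedgehog signals are relayed.

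Promoter sequences were taken from RefSeq (build GRCm38.p6), from 250 bases before to 50 bases after a transcript start. The table held 16 such windows for 9 of the 10 genes, and none for Stk24. The promoters of 4 genes whose levels are described below are printed 5′ to 3′ on the strand of the gene. They are shown because they carry the gene with the largest difference (Abcc4), the one that varied most among wild-type arrays (Mbnl2), the brightest one (Ipo5) and one near background in wild-type cells (Tm9sf2). Capitals mark GAAAC on either strand (read as GTTTC on the other), the core of the sequence reported for Prdm4 binding. The paper reports a longer sequence around this core and proposes that GAAAC alone is not enough for binding. That full sequence was not searched here, and the bound regions of the paper were not used.
Abcc4, chr14:118706170-118706469, minus strand: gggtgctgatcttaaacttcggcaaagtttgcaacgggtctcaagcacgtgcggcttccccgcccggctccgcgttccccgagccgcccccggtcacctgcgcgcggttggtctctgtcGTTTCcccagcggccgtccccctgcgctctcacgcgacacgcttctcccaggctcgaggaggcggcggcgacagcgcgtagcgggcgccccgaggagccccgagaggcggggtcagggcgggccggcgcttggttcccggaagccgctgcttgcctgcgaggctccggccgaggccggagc
Mbnl2, chr14:120275419-120275718, plus strand: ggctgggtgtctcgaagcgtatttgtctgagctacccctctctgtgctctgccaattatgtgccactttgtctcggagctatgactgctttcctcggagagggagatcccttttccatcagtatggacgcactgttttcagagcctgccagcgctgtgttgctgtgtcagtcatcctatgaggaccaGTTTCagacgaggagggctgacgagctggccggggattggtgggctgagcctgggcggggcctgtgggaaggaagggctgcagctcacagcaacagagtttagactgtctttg
Ipo5, chr14:120910944-120911243, plus strand: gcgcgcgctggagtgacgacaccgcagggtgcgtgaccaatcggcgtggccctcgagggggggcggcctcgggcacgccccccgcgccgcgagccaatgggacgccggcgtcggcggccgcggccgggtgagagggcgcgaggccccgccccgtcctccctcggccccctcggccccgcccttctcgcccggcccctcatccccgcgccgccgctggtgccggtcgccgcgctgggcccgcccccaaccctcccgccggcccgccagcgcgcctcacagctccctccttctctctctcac
Tm9sf2, chr14:122106832-122107131, plus strand: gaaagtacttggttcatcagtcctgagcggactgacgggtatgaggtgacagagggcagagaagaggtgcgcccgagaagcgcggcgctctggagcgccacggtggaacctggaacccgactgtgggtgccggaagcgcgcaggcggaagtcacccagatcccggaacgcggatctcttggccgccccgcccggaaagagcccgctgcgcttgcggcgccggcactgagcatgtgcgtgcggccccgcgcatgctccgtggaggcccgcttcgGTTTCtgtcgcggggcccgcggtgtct

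The window of Ipo5 was 80.7% G and C with 47 CpG dinucleotides and had no GAAAC, whereas that of Mbnl2 was 56.3% G and C with 10 CpG and had 1 match. Abcc4 (72.7%, 41 CpG) and Tm9sf2 (68.3%, 36 CpG) had 1 match each. Taking the CpG-richest window of each gene, the 9 genes ranged from 10 to 47 CpG with a median of 29, and the median over the 27025 genes of the table was 8. The 9 genes had more windows each than the genes of the table, which was not limited to genes detected here. These medians are therefore not like for like. GAAAC on either strand was present in 8 of the 16 windows, in 6 genes (Gpr180, Abcc4, Dzip1, Mbnl2, Dock9 and Tm9sf2), and in 45.0% of all 32851 windows. The longer form CTNGAAAC, which contains GAAAC, was present in 2 of the 16 windows, those of Gpr180 and Dzip1, and in 3.83% of all windows. Tgds, Ipo5 and Pcca had no GAAAC in any of their windows. Whether a match bears on any level was not tested. GGGCGG, the GC box, was present in 11 of the 16 windows and in 35.7% of all windows. A match is a run of letters and no site of binding, and no match says nothing of the factor.

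A level here is a log2 intensity after background correction and quantile normalization, with an offset of 16 that compresses differences of dim probes. A probe was above background on an array where its detection p-value, set against negative control beads, was under 0.01. Of the 45281 probes, 13894 to 14905 per array were above background, and 15356 that were so on at least 4 arrays entered the tests. Prdm4 was read first as a check of the labels. Its less bright probe was below background on all 4 null arrays (levels 4.62 to 4.74), against 7.02 to 7.41 on Prdm4-EGFP arrays and 7.06 to 7.49 on wild-type arrays, and its brighter probe read 9.56 to 9.72 on null, 10.07 to 10.34 on Prdm4-EGFP and 10.17 to 10.40 on wild-type arrays. Neither probe was higher on Prdm4-EGFP arrays than on wild-type arrays, and since the positions of the probes in the transcript are not given here they do not check the transgene. All 8 embryonic stem cell markers examined were above background on every array. Their deposited intensities summed to 26400 to 29500 on null, 28100 to 32200 on Prdm4-EGFP and 28800 to 33100 on wild-type arrays. Null means were lower than wild-type means for Nanog (-0.85), Tdgf1 (-0.37) and Pou5f1 (-0.17). They were higher for Dppa4 (0.43), Sox2 (0.29), Utf1 (0.28), Sall4 (0.16) and Zfp42 (0.01). Of 8 fibroblast feeder markers 7 were at background throughout. Thy1 was the exception, with a null difference of -1.79, and the list summed to 145 to 192 on null, 477 to 668 on Prdm4-EGFP and 483 to 665 on wild-type arrays. Among 6 primitive endoderm markers Gata4, Sox17 and Afp were at background throughout, but the summed value of the list was 490 to 607 on null arrays, 168 to 745 on Prdm4-EGFP arrays and 126 to 263 on wild-type arrays. The trophoblast list of 6 (Cdx2, Eomes, Elf5 and Hand1 at background) summed to 220 to 269 on null, 106 to 179 on Prdm4-EGFP and 122 to 183 on wild-type arrays. Of 6 neural markers 5 were on the array, with Sox1, Pax6 and Tubb3 at background. They summed to 143 to 170 on null, 105 to 188 on Prdm4-EGFP and 131 to 194 on wild-type arrays. Nes was above background on the 4 null arrays only, and Map2 had a null difference of -0.26. The part of these markers in the levels below was not tested. In arrays of a cell population, more RNA per cell and more cells with the RNA cannot be told apart.

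Wild-type arrays did not form 1 tight group. Arrays 1, 5 and 6 stood apart from arrays 2, 3 and 4, and this division, known from earlier results of these data, left the 2 sets without overlap for 23.1% of the tested probes. Among the 12 tested member probes it did so for 3, both Mbnl2 probes and the brighter Ipo5 probe, a share close to that background. Values without either set are therefore given where they change a result.

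Of the 22 member probes 12 entered the tests, and they covered 7 genes. The probe with the highest mean stood for its gene. On it, every null array was above every wild-type array and above every Prdm4-EGFP array in all 7 genes. Over the 12 probes this was so for 11 against wild-type arrays and for 11 against Prdm4-EGFP arrays, while over all tested probes the percentages were 15% and 18.8%. Among the 12, the second Dock9 probe entered the tests through the null arrays alone, on which it is high. The genes were chosen for this contrast, and a limma fit called 21.2% of all tested probes higher and 20.4% lower in null arrays, so nothing is read from these counts. The split of the calls moved with scaling, and was 3250 higher of 6381 here, 2372 of 6377 with the normalized table of the authors and 3830 of 6147 with median scaling. The median difference of the 7 genes, null minus wild-type, was 0.94 on the log2 scale (0.80 to 1.65), beside 0.02 for all 8707 named genes tested. The differences ranked from 40th (Abcc4) to 291st (Dock9) among these genes, so some genes outside the list had larger ones. In the normalized table of the authors Ipo5 and not Dock9 had the lower difference of the pair (0.72 and 0.75).

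**Figure D1:**
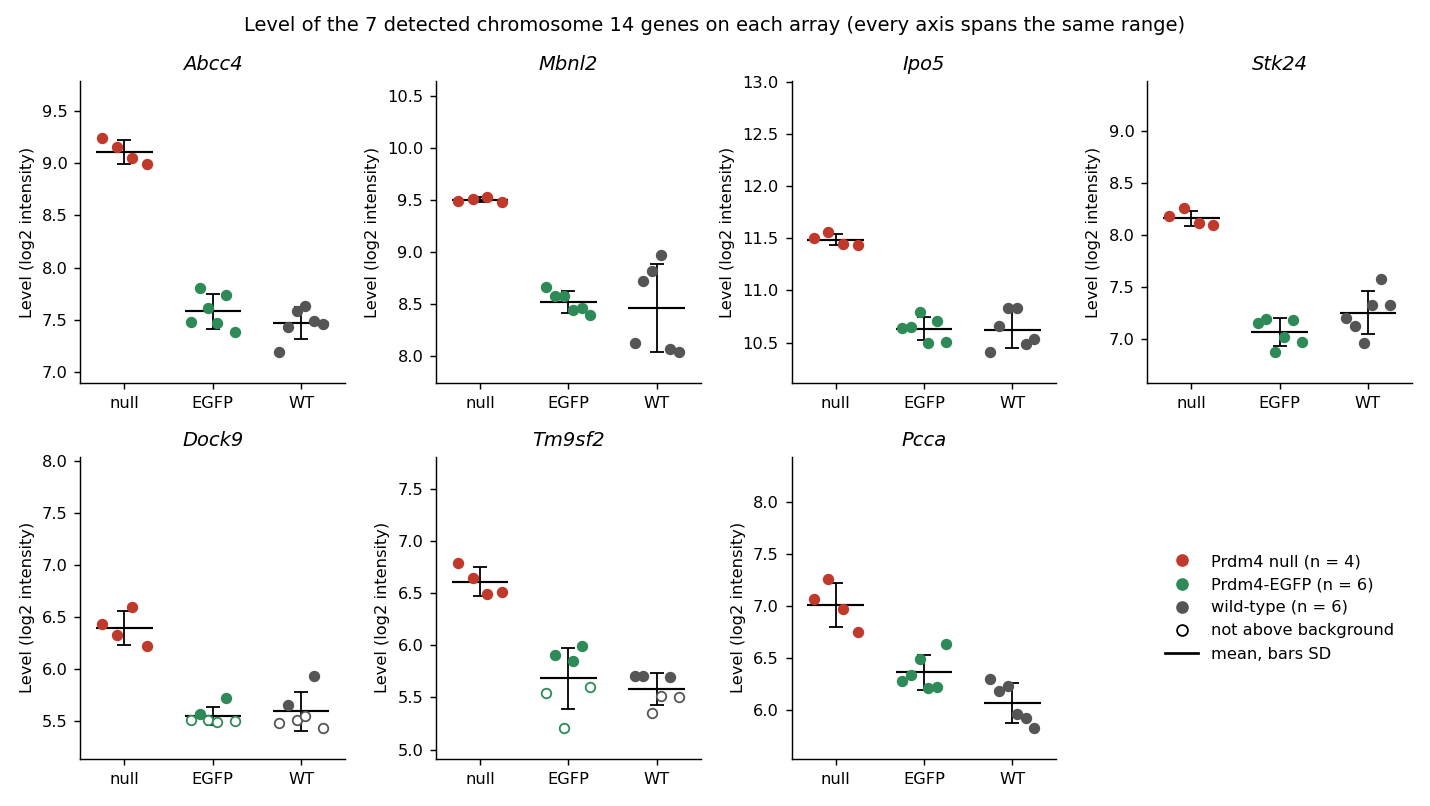
Level (log2 intensity, y axis) of the brightest probe of each of the 7 detected genes on every array, with the 4 Prdm4 null, 6 Prdm4-EGFP and 6 wild-type arrays side by side, the mean as a line and the SD as bars. In all 7 panels the null arrays sit above both other groups, which overlap each other; open circles are arrays on which Dock9 or Tm9sf2 was not above background.

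Abcc4, the transporter, had the largest difference of the 10. Its single probe read 9.24, 9.16, 9.05 and 8.99 on the 4 null arrays, 7.38, 7.55 and 7.80 (lowest, median and highest) on Prdm4-EGFP arrays, and 7.19, 7.47 and 7.63 on wild-type arrays. The null arrays lay 1.36 above the highest wild-type array, a gap wider than the whole range of any group. The difference was 1.65 ± 0.09 (SE of the fit) on the log2 scale, and on the linear, background-subtracted intensities that the authors deposited the mean was 502 ± 30.9 (SD, n = 4) in null against 159 ± 18.7 (SD, n = 6) in wild-type cells, a ratio of 3.15. Prdm4-EGFP cells had 175 ± 23 (SD, n = 6).

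Tm9sf2, the other membrane protein that was detected, was near background outside the null cells. Its brightest probe read 6.79, 6.65, 6.49 and 6.51 on null arrays, 5.21, 5.72 and 5.99 on Prdm4-EGFP arrays, and 5.35, 5.60 and 5.71 on wild-type arrays. It was above background on all 4 null arrays and on 3 of 6 arrays in each other group, and the difference of 1.03 ± 0.13 rests on wild-type values of which 3 were not above background. Deposited intensities were 79.6 ± 8.54 (SD, n = 4) in null and 32.8 ± 5.14 (SD, n = 6) in wild-type cells, a ratio of 2.43. Its second probe was above background on 1 array only, a null array, and the remaining one on none. Gpr180 read 4.85 to 5.08 on null, 4.53 to 4.93 on Prdm4-EGFP and 4.61 to 4.95 on wild-type arrays, with a lowest detection p-value of 0.0534, so all of its readings lay below background.

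Ipo5, the importin, was the brightest of the genes. It read 11.50, 11.56, 11.45 and 11.44 on null arrays, 10.50, 10.64 and 10.79 on Prdm4-EGFP arrays, and 10.41, 10.60 and 10.83 on wild-type arrays. No null array came within 0.61 of a wild-type array. The difference was 0.86 ± 0.09, and the deposited intensities were 2560 ± 77.2 (SD, n = 4) in null and 1560 ± 187 (SD, n = 6) in wild-type cells, a ratio of 1.64, the lowest among the brightest probes of the 7 genes. Its second, much dimmer probe gave a like difference of 0.85 ± 0.14 (6.40 to 6.63 on null, 5.37 to 6.05 on wild-type arrays, of which 4 and 2 were above background).

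Mbnl2, the splicing regulator, was the gene with the widest wild-type spread. It read 9.49, 9.51, 9.53 and 9.48 on null arrays and 8.39, 8.52 and 8.66 (lowest, median and highest) on Prdm4-EGFP arrays. The wild-type arrays 1 to 6 read 8.13, 8.72, 8.82, 8.97, 8.07 and 8.04, so that arrays 1, 5 and 6 all lay below arrays 2, 3 and 4 and the Prdm4-EGFP arrays fell between these sets. The difference between null and wild-type cells was 1.04 ± 0.16 with all 6 wild-type arrays, 0.66 with arrays 2, 3 and 4 alone and 1.42 with arrays 1, 5 and 6 alone. The second Mbnl2 probe divided in the same way (5.95 to 6.12 on wild-type arrays 1, 5 and 6, and 6.44 to 6.80 on arrays 2, 3 and 4) and read 7.18 to 7.43 on null arrays, a difference of 0.99 ± 0.15. For Ipo5 the sets also did not overlap, and the null difference was 0.72 with arrays 2, 3 and 4 alone and 1.01 with arrays 1, 5 and 6 alone.

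Stk24, the kinase, had 1 probe, above background on all 16 arrays. It read 8.18, 8.26, 8.12 and 8.10 on null arrays, 6.88, 7.09 and 7.20 on Prdm4-EGFP arrays, and 6.97, 7.27 and 7.58 on wild-type arrays. The wild-type sets overlapped here, and array 5 of the low Mbnl2 set was the highest wild-type array. The difference was 0.91 ± 0.10, or 258 ± 13.4 (SD, n = 4) in null against 137 ± 22.4 (SD, n = 6) in wild-type cells on deposited intensities, a ratio of 1.88.

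Dock9, the Cdc42 activator, had 5 probes. The brightest read 6.43, 6.33, 6.60 and 6.22 on null arrays, 5.49, 5.51 and 5.72 on Prdm4-EGFP arrays, and 5.44, 5.53 and 5.94 on wild-type arrays, and it was above background on 4 of 4 null arrays but on only 2 of 6 in each other group. Its difference was 0.80 ± 0.09, and its ratio of deposited intensities was 2.00, above the 1.64 of Ipo5, so its place among the 7 genes depends on the scale. The second probe was above background on all 4 null arrays (5.81 to 5.96) and on none of the 12 others, which makes it at least 1.21-fold higher in null than in wild-type cells, with wild-type arrays set at the lowest level called above background. The other 3 probes were below background on all 16 arrays, so 2 of 5 probes carry what is known of Dock9.

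Pcca, the carboxylase subunit, had 3 tested probes, and they disagreed. The brightest read 7.06, 7.26, 6.97 and 6.75 on null arrays, 6.21, 6.31 and 6.63 on Prdm4-EGFP arrays, and 5.83, 6.07 and 6.30 on wild-type arrays, a difference of 0.94 ± 0.11. The third probe read 6.96, 6.99, 7.04 and 6.99 on null arrays, 5.89, 6.14 and 6.34 on Prdm4-EGFP arrays, and 5.18, 5.66 and 5.90 on wild-type arrays, a difference of 1.39 ± 0.12. The second probe, above background on all 16 arrays like the first, read 6.05, 6.36, 6.65 and 6.42 on null arrays, 5.69, 6.02 and 6.36 on Prdm4-EGFP arrays, and 5.69, 6.28 and 6.41 on wild-type arrays. All groups overlapped on this probe and its difference was 0.21 ± 0.15, so Pcca was higher in null cells on 2 of 3 probes. Which transcripts each probe reads is not given here.

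Tgds and Dzip1 stayed at the floor of the scale. Tgds read 4.46 to 4.57 on null, 4.39 to 4.57 on Prdm4-EGFP and 4.38 to 4.49 on wild-type arrays, with a lowest detection p-value of 0.314. The 3 Dzip1 probes read 4.36 to 5.04 on null, 4.35 to 4.86 on Prdm4-EGFP and 4.37 to 4.97 on wild-type arrays, and their lowest detection p-value was 0.063. For Tgds, Dzip1 and Gpr180 no difference was detectable on these arrays, and no fold is given.

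**Figure D2:**
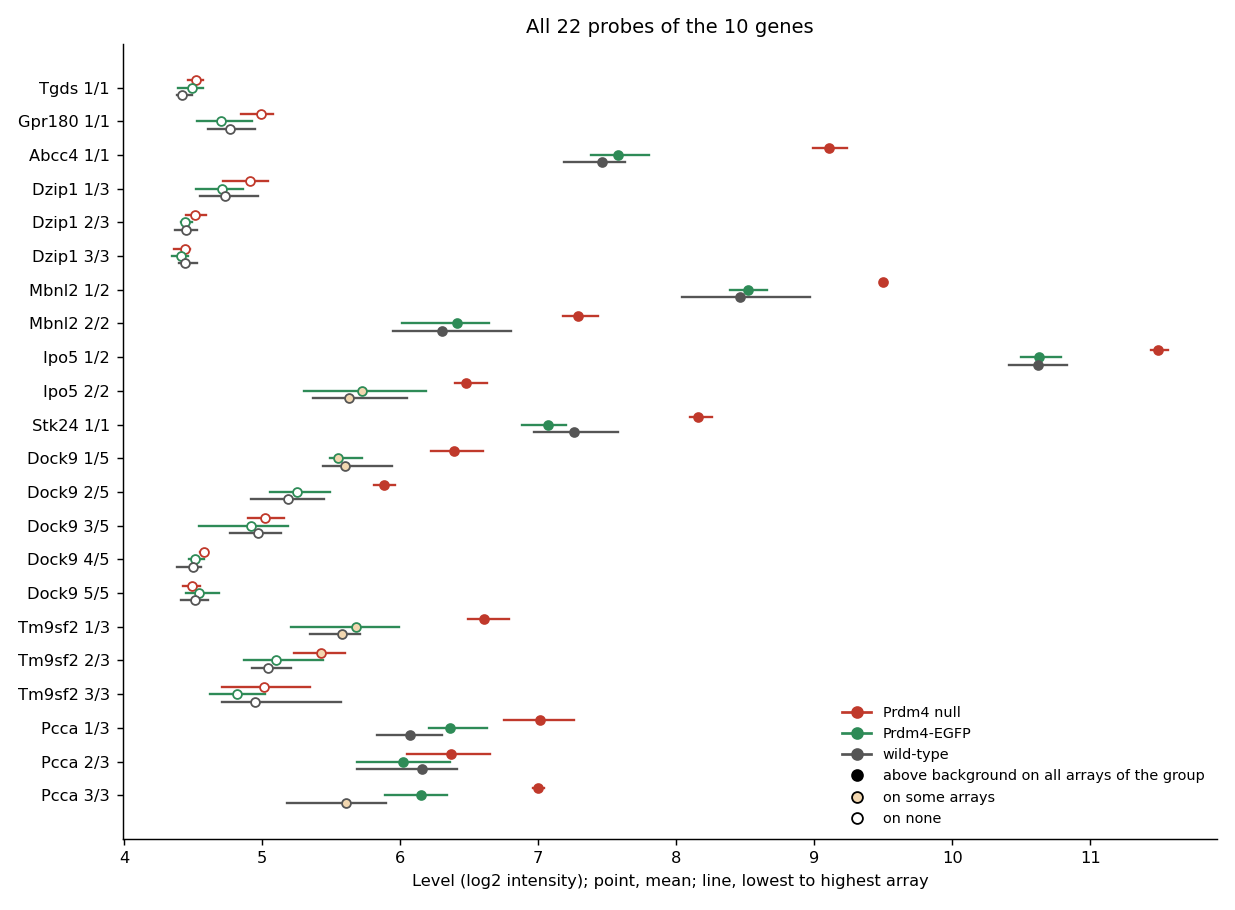
Level (log2 intensity, x axis) of all 22 probes of the 10 genes, each named by gene and brightness rank; points are group means, lines run from the lowest to the highest array, and the filling shows on how many arrays of a group the probe was above background. Null means lie to the right for 11 tested probes, the second Pcca probe overlaps, and Tgds, Gpr180, Dzip1 and 3 Dock9 probes stay near the floor in all groups.

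The Prdm4-EGFP cells allow a comparison that did not choose the genes, although it shares the 6 wild-type arrays with the one that did. None of the 7 genes was called between Prdm4-EGFP and wild-type cells by limma with Benjamini-Hochberg adjustment over all tested probes (0 of 7, 2 of them with an unadjusted p under 0.05), where 3.75% of all tested probes were called in either direction (277 of 576 higher, or 466 of 649 with median scaling). The arrays of both groups overlapped for all 12 tested member probes. The share over all tested probes was not worked out, so nothing is read from this count. The median difference, Prdm4-EGFP minus wild-type, was 0.06 (-0.19 to 0.29). The genes with an unadjusted p under 0.05 pointed in opposite directions, Pcca at 0.29 ± 0.10 (limma adjusted p = 0.119, higher) and Stk24 at -0.19 ± 0.09 (limma adjusted p = 0.275, lower). Abcc4 differed by 0.12 ± 0.08 (adjusted p = 0.51), Mbnl2 by 0.06 ± 0.14 (0.885), Ipo5 by 0.01 ± 0.08 (0.982), Dock9 by -0.05 ± 0.08 (0.841) and Tm9sf2 by 0.10 ± 0.11 (0.708), all from the same fit.

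Null and Prdm4-EGFP cells differed in the same direction as null and wild-type cells, as a description, since the null arrays chose the genes. The difference, null minus Prdm4-EGFP, was 1.53 for Abcc4, 1.09 for Stk24, 0.98 for Mbnl2, 0.93 for Tm9sf2, 0.86 for Ipo5, 0.84 for Dock9 and 0.65 for Pcca. Pcca came closest, with its lowest null array 0.12 above its highest Prdm4-EGFP array, and Abcc4 lay farthest apart, with 1.19 between them.

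At the level of probes 1 of the 12 was called, the third Pcca probe, which was 0.54 ± 0.10 higher in Prdm4-EGFP cells (limma adjusted p = 0.00821). It was above background on every Prdm4-EGFP array and on 3 of 6 wild-type arrays, and the lowest Prdm4-EGFP array (5.89) lay just under the highest wild-type array (5.90). The second Pcca probe, by contrast, read -0.14 ± 0.14 (adjusted p = 0.652). The call of Mbnl2 changed with the wild-type arrays used. Against wild-type arrays 2, 3 and 4 alone Prdm4-EGFP cells were lower by limma (difference -0.32, adjusted p = 0.0495), and against arrays 1, 5 and 6 alone they were higher (0.44, adjusted p = 0.00104). Stk24 was called lower against arrays 1, 5 and 6 alone (-0.30, limma adjusted p = 0.0498) and differed by -0.07 (adjusted p = 0.783) against arrays 2, 3 and 4 alone. Over all alternatives the adjusted p ranged from 0.00104 to 0.99 for Mbnl2 and from 0.0498 to 0.994 for Stk24.

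Between arrays of 1 group the 7 genes did not vary as a block. Over the 16 arrays, as deviations from group means, the correlation of 21 gene pairs had a median of 0.11 and ran from -0.45 (Stk24 with Pcca) to 0.82 (Mbnl2 with Ipo5), with 11 pairs above 0. Abcc4 with Ipo5 reached 0.72 and Stk24 with Tm9sf2 reached 0.54. These are descriptions over arrays that share their normalization, and on both genes of the highest pair wild-type arrays 1, 5 and 6 lay below arrays 2, 3 and 4. With group differences left in, the same pairs correlated at 0.69 to 0.97.

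On single arrays the difference from the wild-type mean, as the median over the 7 genes, was 0.99, 1.05, 0.91 and 0.84 on the null arrays 1 to 4. It ran from -0.08 to 0.13 on Prdm4-EGFP arrays and from -0.11 to 0.12 on wild-type arrays. All 4 null arrays carried the difference to a similar extent, and on each of them the lowest of the 7 genes was at least 0.62 above its wild-type mean. With arrays numbered 1 and 2 alone the median difference of the 7 genes was 1.01, and with those numbered 3 and above alone it was 0.88, and both divisions were added after the data were seen.

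The chromosomal neighbours were set beside these genes by their order in the RefSeq gene table of GRCm38.p6. The stretch runs from Slitrk5 to Pcca, and its ends came from the same contrast, so these values too are descriptions. It held 33 genes of the table that code for protein or carry a probe, of which 31 had a probe and 14 entered the tests. Null arrays were above every wild-type array for 13 of these 14, where the share over all tested probes was 15%, and nothing is read from the count. Slitrk5 and Timm8a2 entered the tests through the null arrays, on which they are high. The median difference of the 14 was 1.04, or 0.92 with these 2 genes at their lower bounds. The 7 that are not among the 10 genes were Slitrk5, Mir17hg, Sox21, Dnajc3, Rap2a, Ubac2 and Timm8a2, with a median of 1.19, or 0.87 with Slitrk5 and Timm8a2 at their lower bounds.

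Sox21, a transcription factor of the SOX family, read 7.68 ± 0.19 (SD, n = 4) in null, against 5.95 ± 0.20 (SD, n = 6) in wild-type cells, and had the largest difference in the stretch (1.73 ± 0.13). Mir17hg, the host transcript of a microRNA cluster known for promoting proliferation, read 11.25 ± 0.08 in null and 9.79 ± 0.14 in wild-type cells, a difference of 1.46 ± 0.09. Dnajc3, a chaperone of the endoplasmic reticulum, differed by 1.19 ± 0.10 and Ubac2, a membrane protein of the same compartment, by 0.87 ± 0.06. Slitrk5, a neuronal membrane protein, and Timm8a2, of the mitochondrial import machinery, were above background on all 4 null arrays and on no wild-type array, at least 1.76-fold and at least 1.58-fold higher in null cells.

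Rap2a, a small GTPase between Mbnl2 and Ipo5, was the exception. It read 5.67, 5.88, 6.26 and 5.82 on null arrays and 5.56 to 6.19 on wild-type arrays, a difference of 0.10 ± 0.11, although it was above background on all 16 arrays. The differences of the 7 genes ran from 0.80 to 1.65, so Rap2a lay below their range and Sox21 (1.73) above it. Slitrk5, Mir17hg, Dnajc3, Ubac2 and Timm8a2 are not on the list although their measured differences lay within that range. Beyond Pcca, Ggact and Tmtc4 both differed by 0.38, and their null arrays did not overlap their wild-type arrays (6.69 to 6.84 against 6.06 to 6.57 for Ggact, and 6.06 to 6.57 against 5.77 to 5.94 for Tmtc4). Nalcn, Itgbl1 and Fgf14, further out, were below background on all arrays.

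**Figure D3:**
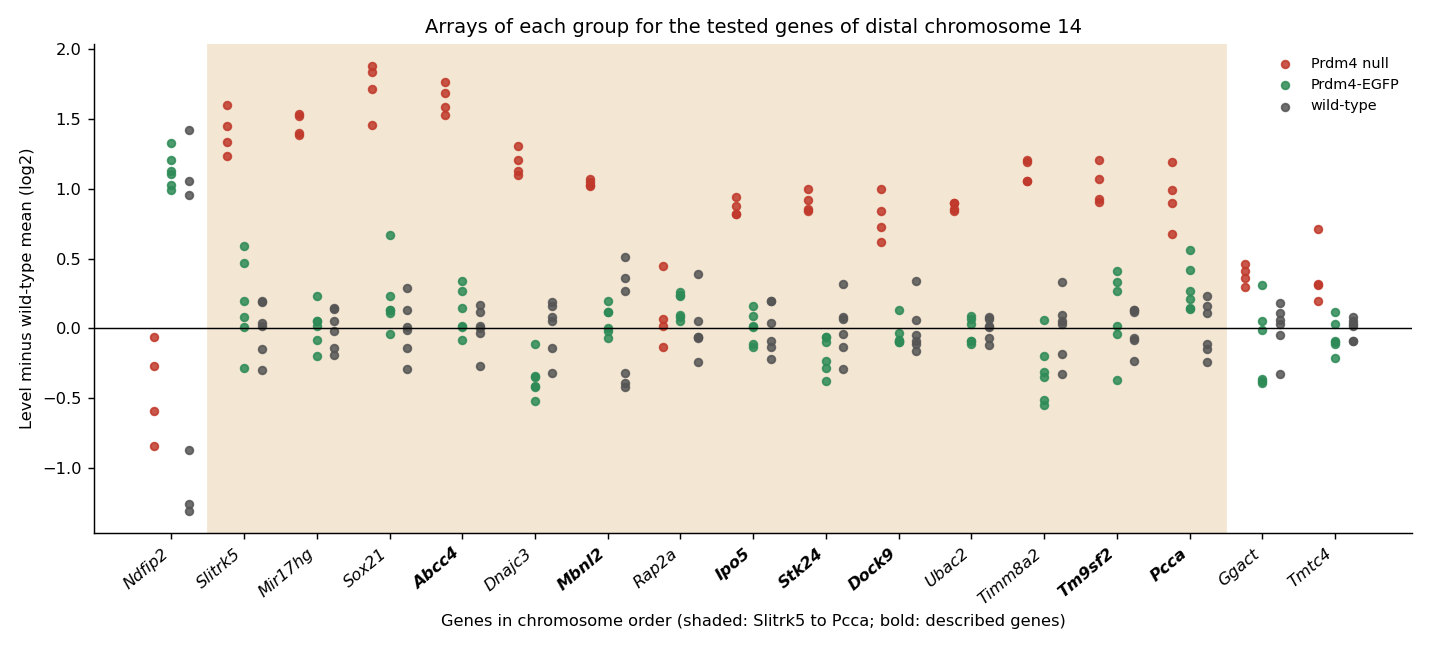
Level minus the wild-type mean (log2, y axis) of each array for the tested genes of distal chromosome 14 in chromosome order, with null, Prdm4-EGFP and wild-type arrays from left to right for each gene. From Slitrk5 to Pcca the null points stand above both other groups except for Rap2a, while Ndfip2, just before Slitrk5, splits the wild-type arrays into 3 high and 3 low.

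Proximal to Slitrk5 the picture was another one. Ndfip2, the nearest tested gene on that side, read 5.20 to 5.98 on null and 7.03 to 7.36 on Prdm4-EGFP arrays, while wild-type arrays 1 to 6 read 4.77, 7.45, 7.0, 7.10, 5.16 and 4.72. The 7 tested genes from Commd6 to Ndfip2, a stretch chosen after its values were seen, as was the next, had wild-type arrays 1, 5 and 6 below arrays 2, 3 and 4 without overlap for all 7, with a median difference of -1.96. The direction of a comparison therefore turned with the arrays used, as values added after the data were seen show. The median null difference was -0.08 against all wild-type arrays, 0.89 against arrays 1, 5 and 6 alone (7 of 7 above 0) and -0.79 against arrays 2, 3 and 4 alone (7 of 7 below 0). For Prdm4-EGFP cells the medians were 0.94, 1.91 and -0.04 in the same order. Before them, 32 of 33 tested genes from Itm2b to Klf5 had lower null than wild-type means, with a median difference of -0.87. Over all 8707 named genes tested, the null difference was above 0 for 4575. The wild-type sets did not overlap for 29 of these 33 either, with a median difference of -0.56 between them. Their direction was mixed, as arrays 1, 5 and 6 had the lower mean for 26 of the 33. From Mzt1 to Klf5, at the distal end of this stretch, arrays 1, 5 and 6 had the higher mean, by 0.287 to 0.784. The null median of the 33 was -0.51 against arrays 1, 5 and 6 alone and -1.07 against arrays 2, 3 and 4 alone. From Slitrk5 to Pcca the median difference between the wild-type sets was -0.06, and the null median was 1.06 against either set alone. The sets did not overlap for 3 of these 14 genes. Over all tested probes the share without overlap was 23.1%, close to that of the 14, so nothing is read from this count. Between Ndfip2 and Tgds, the first of the 10 genes, lie Spry2, Trim52, Slitrk1 and Slitrk6, which were not tested, and then Slitrk5, Mir17hg, Gpc5, Gpc6 and Dct. Whether these differences are connected was not tested. The arrays measure RNA alone, so the number of copies of a gene and the RNA made per copy cannot be told apart in any difference given here. Over the 287 tested genes of chromosome 14 outside the stretch the median null difference was -0.02.

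**Figure D4:**
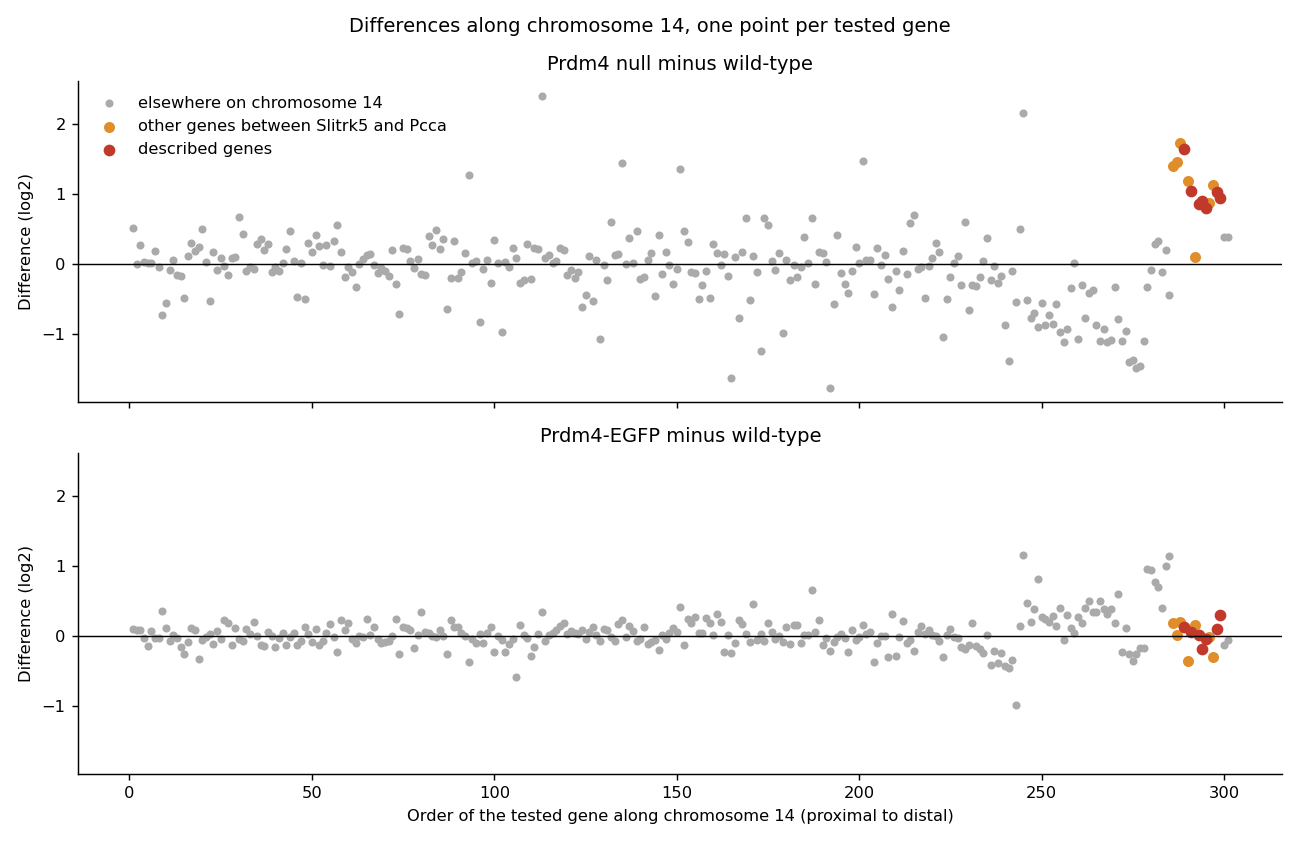
Difference between group means (log2, y axis) for 301 tested genes in their order along chromosome 14, with Prdm4 null minus wild-type above and Prdm4-EGFP minus wild-type below. The described genes sit near the distal end between 0.80 and 1.65 in null cells and between -0.19 and 0.29 in Prdm4-EGFP cells. A little before the stretch, 32 of 33 genes from Itm2b to Klf5 lie below 0 in null cells, where 4575 of all 8707 named genes tested were above 0.

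Relatives and working partners of the 10 genes outside the stretch were examined to see whether the families moved too. The list held 80 genes in 10 families, of which 75 were on the array and 46 entered the tests. By limma with adjustment over all tested probes 14 rose and 6 fell in null cells, where 21.2% of all tested probes were called higher and 20.4% lower. The split moved with scaling, with 11 higher and 10 lower in the normalized table of the authors and 17 higher and 3 lower with median scaling, and the 6 that fell became 3 without wild-type array 2 or without null array 3. The median difference of the 46 was 0.10, beside 0.02 for all named genes. In Prdm4-EGFP cells 0 rose and 2 fell (Celf5 and Xpo7).

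Among 14 beta-karyopherins, the nuclear transport receptors to which Ipo5 belongs, 4 rose and 2 fell. Ipo9 fell by 0.71 (± 0.16, limma adjusted p = 0.00198) and Kpnb1, the classical importin beta, fell by 0.40 (± 0.15, adjusted p = 0.0397). Tnpo2 rose by 0.40 (± 0.08, adjusted p = 0.000369), followed by Ipo13 at 0.37, Ipo8 at 0.36 and the tRNA exporter Xpot at 0.30. None reached the 0.86 of Ipo5, though that value is one the gene was chosen for.

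Of 5 tested splicing regulators of the muscleblind and Celf families 3 rose and none fell. Celf2, a Celf protein, read 6.71 ± 0.28 (SD, n = 4) in null and 5.61 ± 0.33 (SD, n = 6) in wild-type cells, a rise of 1.11 ± 0.15 (limma adjusted p = 1.38e-05), and it was above background on 2 of 6 wild-type arrays. Mbnl1, the nearest paralogue of Mbnl2, rose by 0.32 ± 0.10 (adjusted p = 0.0171) and Celf5 by 0.39 ± 0.09 (adjusted p = 0.00211). In the group of Stk24, germinal centre kinases and the Striatin complex to which they bind, Mob4 fell by 0.56 (± 0.09, adjusted p = 4.41e-05), Strn4 rose by 0.31 ± 0.07 and Strn was called lower with null arrays all at background, while Stk25, the closest paralogue of Stk24, read -0.25 ± 0.13 (adjusted p = 0.127).

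Of the Dock proteins Dock11, which like Dock9 acts on Cdc42, rose by 0.32 ± 0.08 (limma adjusted p = 0.00555), and Cdc42 itself differed by -0.02 ± 0.08 (adjusted p = 0.891). Tm9sf4, the only tested paralogue of Tm9sf2, rose by 0.70 ± 0.09 (adjusted p = 9.41e-06). Abcc5 rose by 0.27 ± 0.11 (adjusted p = 0.0472) and Abcc10 read -0.07 ± 0.13. Tmem145, the paralogue of Gpr180, rose by 0.46 ± 0.11 (adjusted p = 0.0027).

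Pccb, the other subunit of propionyl-CoA carboxylase, read 7.87 ± 0.10 (SD, n = 4) in null and 7.82 ± 0.16 (SD, n = 6) in wild-type cells, a difference of 0.05 ± 0.08 (limma adjusted p = 0.624), beside the 0.94 of Pcca, and the difference between the subunits was not tested. Of the other tested genes of that pathway Mmadhc rose by 0.21 ± 0.07 and Mcee and Mmab were not called. Around Dzip1 the hedgehog effectors went in opposite directions. Gli3 rose by 0.93 ± 0.08 (adjusted p = 4.77e-08), Gli2 fell by 1.26 (± 0.10, adjusted p = 3.96e-08) and Dzip1l, the paralogue, fell by 0.25 (± 0.09, adjusted p = 0.0332). Relatives of Tgds, Gmds and Gfus, were not called.

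**Figure D5:**
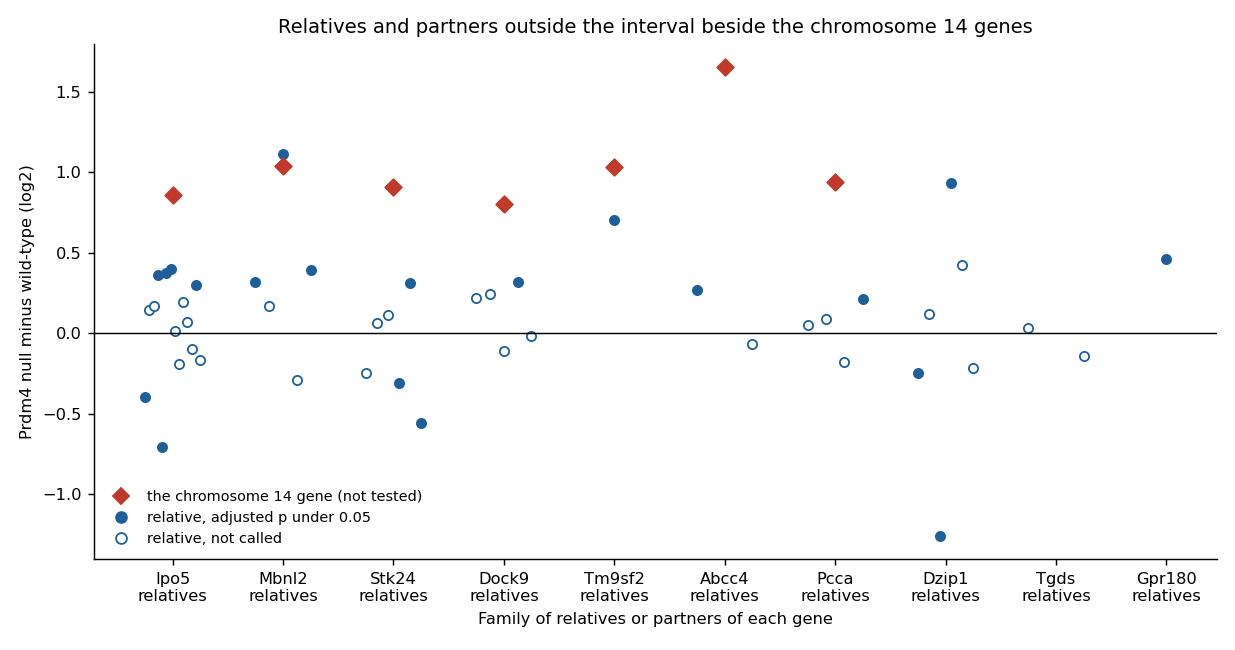
Prdm4 null minus wild-type (log2, y axis) of tested relatives and partners, grouped by the gene they belong to; diamonds are the chromosome 14 genes, which were chosen for this contrast and not tested, and filled circles are relatives with an adjusted p under 0.05. Calls lie on both sides of 0, from -1.26 (Gli2) to 1.11 (Celf2).

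The likeness of other genes to the shared profile was measured as the Pearson correlation of their levels with the mean centred level of the 7 genes over the 16 arrays, as a description, since all points share the contrast that chose them. Outside the stretch the 10 most alike of 8707 genes were Slc38a2, Adamts9, Efna5, Puf60, Cadps2, Grm6, Trim36, Lrpap1, Tbx4 and Atf7ip, with correlations of 0.977 to 0.987. They lay on chromosomes 5, 6, 11, 15, 17 and 18, none on chromosome 14. Their null differences ran from 0.32 (Puf60) to 3.00 (Trim36), so likeness of profile did not mean likeness of size. Within the stretch Abcc4 (0.992), Mir17hg (0.980) and Ipo5 (0.969) had the highest values, and Pcca (0.867) ranked 499th and Rap2a (0.074) 4254th. The mean profile contains Abcc4, Ipo5 and Pcca themselves, which can raise their values. Theirs are therefore not comparable with those of genes outside the 7. Over all genes 87 exceeded 0.95, so the profile was not particular to chromosome 14.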

How the data were processed

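Gene expression was measured in 16 samples, grouped by their labels into 4 Prdm4 null, 6 Prdm4-EGFP and 6 wild-type arrays. For 45281 probes the authors deposited the linear signal intensity of the scanner, neither normalized nor background-subtracted, beside a detection p-value. A further table that the authors deposited held the same intensity after rank-invariant normalization, which amounted to a linear rescaling of each array (residuals up to 0.0106) and left 25.4 to 36.6% of values negative. The error model and score of the array software that the study used were not run here. Precision is limited by how many arrays there are.

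Scanner signals were background-corrected and quantile-normalized on the log2 scale by neqc of limma 3.58.1 (R 4.3.3), which took its background parameters from the detection p-values and used 16 as offset. The 15356 probes kept were those detected, with p under 0.01, on 4 or more arrays. The functions lmFit and eBayes were run on 3 group means over all 16 arrays, two-sided, with Benjamini-Hochberg adjustment over all kept probes and a threshold of 0.05. The words rose, fell and called are kept for what passed it. The fit was tested on simulated data with known changes. Errors are SE of a fitted difference or SD between arrays. The brightest kept probe stood for a gene.

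The members, the lists of relatives and markers and the tests were chosen with earlier results of these data known. Named genes were all 10 members with every probe, all kept genes from Slitrk5 to Pcca and in the flanks from Ndfip2 to the chromosome end, in each family of relatives the 3 called genes with the largest change and any single paralogue, and the 10 genes most like the members' profile. Further relatives, markers and genes proximal to Ndfip2 were named after their values were seen. Gene order and promoters came from RefSeq tables of GRCm38.p6. Which build the array annotation follows is not given in the sources used here, so no probe positions are used. Python 3.11.15 made the tables (pandas 2.3.3, numpy 2.4.6) and the figures (matplotlib 3.10.9). Alternatives covered normalization, background, filter, threshold, pairing, array weights and arrays left out. Same-numbered arrays of different groups correlated in their deviations from group means at 0.103 on average over 14 pairs (-0.0647 to 0.258), with 7 pairs above 0.1. The 70 pairs with different numbers averaged -0.0203, so same-numbered arrays were slightly more alike. The numbers were not used as pairs in the main fit, and a replicate block was among the alternatives.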

Additional observations from a re-analysis of the deposited data

Results flagged for a closer look

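On the brightest Dock9 probe, Prdm4-EGFP array 5 read 5.72 on the log2 scale, above the next array of its group at 5.57. The gap was 0.679 of the group's range, over the critical value of 0.625 for 6 samples. This was the 1 flag among 36 groups of arrays examined, and about 1 group in 20 is flagged when nothing is amiss. Leaving the array out changed the difference of Dock9 from wild-type cells little, as all values with 1 array left out lay between -0.08 and 0.02.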

How the results depend on the processing

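The median null difference of the 7 genes was 0.94 and ran from 0.87 to 1.03 with 1 array left out. It was 0.74 with no background correction, where dim probes are compressed by construction, and 0.92 with a replicate block. With the replicate block 0 members were called in Prdm4-EGFP cells, and 15 relatives rose and 6 fell. 5 of 16 arrays correlated best with their own number. Members called in Prdm4-EGFP cells numbered 1 without wild-type arrays 1, 5 and 6, when Mbnl2 turned to -0.32, and 2 without wild-type arrays 2, 3 and 4. Of the relatives 4 rose at an adjusted p under 0.001, 9 with arrays numbered 1 and 2 alone and 7 with those numbered 3 and above alone, both chosen after seeing the data. Relatives that fell numbered 10 with the deposited normalized table, 3 with median scaling, 3 without a filter on dim probes, 2 at an adjusted p under 0.001, 3 with arrays numbered 1 and 2 alone, and 3 to 7 with 1 array left out, being 3 without wild-type array 2 and without null array 3. Probes called in Prdm4-EGFP cells numbered 576, and 4 to 1686 over the alternatives. In null cells they numbered 6381, and 2728 (adjusted p under 0.001) to 6874. The median of all probes shifted to -0.052 in the deposited table and 0.071 with median scaling, against 0.013. The cause of these changes was not tested.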
